A study of Mus musculus with 2 samples.

Results

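The 32 genes described here carry glycolysis and the transcriptional response to low oxygen, and they were followed in liver sinusoidal endothelial cells (LSECs) of mice with and without *Maf* in these cells. They were taken by gene symbol, and 33 of the 32285 features of the count tables carry one of the names, because *Aldoa* is listed under a pair of gene identifiers. Of the 32 genes, 22 belong to glycolysis (3 transporters, 16 enzyme genes and 3 regulators of flux) and 10 to oxygen sensing and the hypoxia response. All 32 are accounted for below.

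Single-cell RNA sequencing (10x Genomics, 3′ tags with unique molecular identifiers, UMIs) gave 1 library from Maf LSEC-KO mice and 1 from control mice, each a pool of the livers of 3 mice. Maf LSEC-KO mice carried Clec4g-iCre and *Maf* fl/fl, so that the floxed *Maf* sequence was removed in cells that had expressed *Clec4g*, an LSEC gene, with Cre active from late fetal life. Controls were littermates without the Cre transgene (*Maf* fl/fl or fl/wt) and are labelled WT. Mice of both sexes aged 3 and 6 months were used across the study, with no age given for these pools in the sources used here. In both libraries the LSECs carried RNA of the Y-linked genes *Ddx3y*, *Eif2s3y*, *Kdm5d* and *Uty* and almost none of *Xist* (3 UMIs in control, 12 in Maf LSEC-KO). Livers were digested warm with collagenase and endothelial cells were enriched with magnetic beads against CD146, so that every cell spent time outside the circulation before its RNA was captured.

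Glycolysis splits glucose into pyruvate in the cytosol. Glucose enters through GLUT transporters, hexokinase traps it, phosphofructokinase commits it, lower-pathway enzymes recover ATP and NADH, and lactate dehydrogenase and monocarboxylate transporters dispose of the pyruvate as lactate. Endothelial cells obtain most of their ATP this way, and sprouting vessels use more of it. At low oxygen the prolyl hydroxylases (EGLN proteins) no longer mark the alpha subunits HIF1A and EPAS1 for destruction, and these bind the core motif RCGTG beside many glycolytic genes and beside genes of their own feedback, such as *Egln3*. The liver sinusoid carries an oxygen gradient from the portal to the central vein.

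The core motif was looked for in the promoters of the genes. RefSeq start sites (assembly GRCm38.p6, whose primary chromosomes are those of mm10) were available for 30 of the 32 genes, not for *Epas1* and *Ndrg1*, as 45 windows of 300 bases each, from 250 bases before to 50 bases after the start. The letters ACGTG or GCGTG, on either strand, occurred in 36 of the 45 windows (80.0%), against 43.8% of all 32851 windows. By gene they occurred in 27 of the 30 genes (90%), against 46.7% of all 27025 genes. Both motifs hold a CG dinucleotide, and member windows held a median of 21 CG dinucleotides against 7 in all windows, so these shares are not compared on equal base composition. *Eno2*, *Gpi1* and *Tpi1* had no match. The letters TGCTGAC, a short site bound by Maf proteins, occurred in 0 of the 45 member windows and in 4.67% of all windows. These are matches of letters within 300 bases and not binding sites. Printed 5′ to 3′ along the gene, with the HIF core letters in capitals, are the windows of *Ankrd37* at chr8:45999801-46000100 (minus strand), with 4 matches, *Egln3* at chr12:54203825-54204124 (minus strand), with 1, *Slc2a1* at chr4:119108495-119108794 (plus strand), with 2, *Ldha* at chr7:46845554-46845853 (plus strand), with 7, and *Tpi1* at chr6:124814109-124814408 (minus strand), with 0. The first 3 belong to genes with the largest ratios between the libraries reported below, *Ldha* encodes the closing enzyme of the pathway, and *Tpi1* is a glycolytic gene without a match. Matches may overlap, since CACGTG reads as the motif on both strands.
Ankrd37: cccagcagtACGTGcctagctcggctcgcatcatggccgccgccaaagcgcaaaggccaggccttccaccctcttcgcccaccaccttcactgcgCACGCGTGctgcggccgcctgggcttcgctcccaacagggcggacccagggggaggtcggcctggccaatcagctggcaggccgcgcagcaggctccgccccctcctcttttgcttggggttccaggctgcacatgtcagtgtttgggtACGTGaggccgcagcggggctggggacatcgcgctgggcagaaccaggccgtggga
Egln3: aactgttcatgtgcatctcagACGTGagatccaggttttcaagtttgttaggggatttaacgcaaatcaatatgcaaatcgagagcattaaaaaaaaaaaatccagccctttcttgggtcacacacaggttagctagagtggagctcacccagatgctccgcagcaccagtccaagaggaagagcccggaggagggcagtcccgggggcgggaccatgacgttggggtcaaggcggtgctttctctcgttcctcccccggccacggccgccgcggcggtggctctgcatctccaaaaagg
Slc2a1: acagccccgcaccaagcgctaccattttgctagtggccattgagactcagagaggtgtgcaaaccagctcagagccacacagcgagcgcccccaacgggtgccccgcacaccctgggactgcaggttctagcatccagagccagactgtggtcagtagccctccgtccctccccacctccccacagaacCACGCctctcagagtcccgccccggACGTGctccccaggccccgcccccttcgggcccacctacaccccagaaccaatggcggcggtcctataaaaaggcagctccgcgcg
Ldha: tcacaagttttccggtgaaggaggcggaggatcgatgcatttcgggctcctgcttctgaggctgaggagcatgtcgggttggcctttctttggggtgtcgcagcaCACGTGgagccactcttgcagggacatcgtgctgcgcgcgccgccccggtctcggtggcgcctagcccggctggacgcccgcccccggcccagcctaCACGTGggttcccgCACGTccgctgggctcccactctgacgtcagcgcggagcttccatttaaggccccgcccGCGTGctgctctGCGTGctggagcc
Tpi1: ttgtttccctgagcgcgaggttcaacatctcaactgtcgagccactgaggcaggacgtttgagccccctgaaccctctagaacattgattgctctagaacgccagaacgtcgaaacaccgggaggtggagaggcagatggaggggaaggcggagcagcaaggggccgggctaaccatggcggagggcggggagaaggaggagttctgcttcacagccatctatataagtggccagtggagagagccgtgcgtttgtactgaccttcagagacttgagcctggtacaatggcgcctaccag

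After quality filters and removal of predicted doublets, 4101 control and 3251 Maf LSEC-KO LSECs were compared, with a median of 8395 and 13871 UMIs per cell and 37358862 and 52158686 UMIs in all. *Maf* (chr8:115682942-115707794, minus strand) had 113977 UMIs in control LSECs, a level of 3471 CPM (UMIs of a gene per 1000000 UMIs, leaving out mitochondrial and ribosomal protein genes), and 5012 UMIs, 125 CPM, in Maf LSEC-KO LSECs, so the labels and the RNA go together. It was detected in 99.4% of control and 21.4% of Maf LSEC-KO LSECs. The libraries share 10 cell barcodes. With 1 library per genotype no test between genotypes is possible, no p-value is given, and the 95% intervals in brackets (exact Poisson for a level, exact conditional for a log2 ratio, exact binomial for a share) cover counting error only. Several other properties differed between the libraries: ribosomal protein genes took 7.66% of LSEC UMIs in control and 18.6% in Maf LSEC-KO, a list of immediate-early and heat-shock genes stood at 1082 and 3207 CPM, cell-cycle genes at 226 and 1385 CPM, stellate markers at 29.998 and 136 CPM, and hemoglobin and other erythroid genes at 1253 and 14.4 CPM. Their part in the values below was not tested, and genotype, pool and library cannot be told apart.

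The first comparison asks how the pathway's RNA differs between LSECs with and without *Maf*. Most glycolytic genes stood higher in Maf LSEC-KO, whereas the oxygen-sensing and hypoxia-response genes split. A gene was counted when its CPM averaged at least 10 over both libraries, and as higher or lower when its ratio was past 1.5-fold. Of the 32 genes 26 reached that level, with 15 higher, 3 lower and 8 within 1.5-fold. Among all 8930 genes at that level, 20.2% were higher and 9.55% were lower by the same rule. The median log2 ratio was 0.74 over the 26 genes and 0.13 over all genes. *Slc2a1*, *Hk2* and *Ankrd37* were below 10 CPM in control and reached the average only through Maf LSEC-KO, so their place among the higher genes follows in part from the limit. The same holds in every later comparison for a gene that is under 10 CPM in 1 of the groups. The 17 counted glycolysis genes gave 13 higher and 0 lower, with a median log2 ratio of 1.08. The 9 counted hypoxia genes gave 2 higher and 3 lower, with a median of 0.03. When all UMIs were used as the denominator, which counts the ribosomal protein RNA, 12 genes were higher and 3 lower, the background was 13.3% higher and 15.7% lower, and the median of all genes moved from 0.13 to -0.07. Median-of-ratios scaling gave 13 higher and 3 lower over a background of 14.4% and 15.0%. *Pdk1* and *Bnip3* were not past 1.5-fold under either scaling, and *Slc2a1* dropped below the level limit with all UMIs as the denominator, while the 11 enzyme genes stayed past 1.5-fold higher under all 3 scalings.

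**Figure D1:**
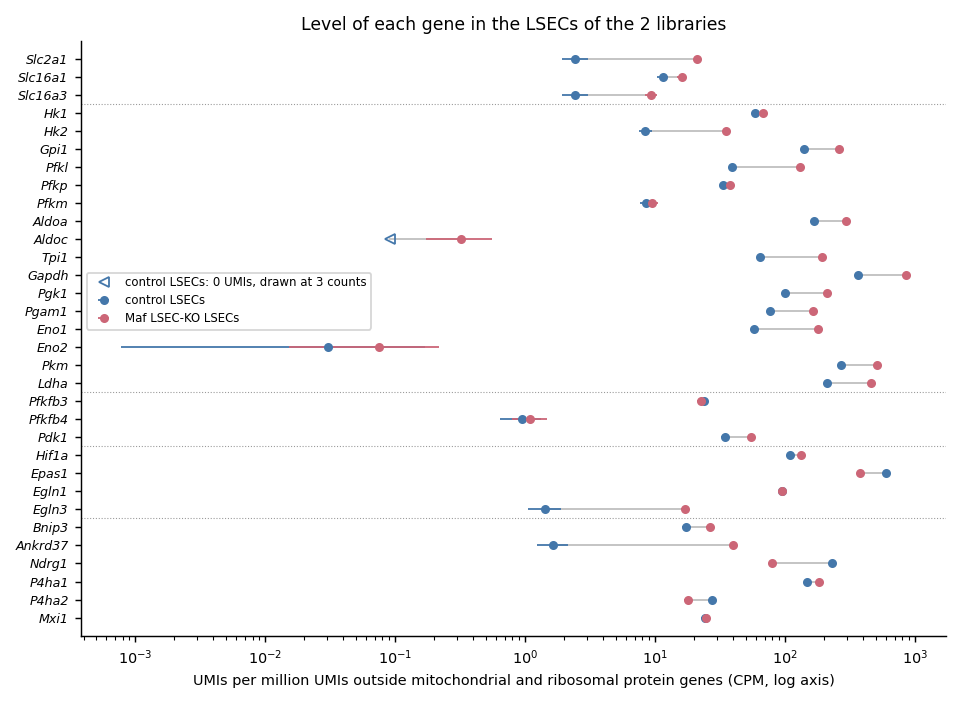
Level of each of the 32 genes in control (blue) and Maf LSEC-KO (red) LSECs, in CPM on a log axis, with 95% Poisson intervals as bars; dotted lines separate transporters, enzymes, flux regulators, oxygen sensing and hypoxia response. The red point lies right of the blue point in nearly every enzyme row, and left of it for *Epas1*, *Ndrg1* and *P4ha2*; the triangle for *Aldoc* marks 0 control UMIs.

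Of the 3 transporters of both ends of the pathway, the glucose transporter was past 1.5-fold higher in Maf LSEC-KO. *Slc2a1* (chr4:119108711-119137983, plus strand) encodes GLUT1, the basal glucose transporter of endothelium, and its promoter is the one shown above with paired matches near the start. Control LSECs held 80 of its UMIs (2.44 CPM, 1.93 to 3.03) and those of Maf LSEC-KO held 854 (21.2 CPM, 19.8 to 22.7), for a log2 ratio of 3.12 (2.79 to 3.47). After thinning every cell to 2700 UMIs, it was detected in 0.514% of control and 3.72% of Maf LSEC-KO LSECs, against 1.93% and 19.8% at full depth. *Slc16a1* (MCT1, which moves lactate and pyruvate either way) had 11.5 and 16.05 CPM, within 1.5-fold. *Slc16a3* (MCT4, the lactate exporter of glycolytic cells) stayed under the level limit, with 80 UMIs and 2.44 CPM in control and 374 UMIs and 9.30 CPM in Maf LSEC-KO, a log2 ratio of 1.93 (1.58 to 2.30). *Slc16a3* thus took 17.5% of the UMIs of both lactate transporters in control and 36.7% in Maf LSEC-KO.

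Of the 16 enzyme genes 13 were counted, and 11 of them were past 1.5-fold higher. The widest ratios among the 13 counted enzyme genes were those of *Hk2* and *Pfkl*, single members of their families whose paralogs stayed within 1.5-fold. *Hk2*, the inducible hexokinase that docks on mitochondria, had 8.47 CPM (7.50 to 9.52) in control and 35.3 CPM in Maf LSEC-KO, a log2 ratio of 2.06 (1.87 to 2.25). *Hk1*, the constitutive hexokinase, had 59.3 and 68.3 CPM, a log2 ratio of 0.20. Of the UMIs of both hexokinases, *Hk2* held 12.5% (11.1 to 13.9) in control, against 34.0% (32.6 to 35.5) in Maf LSEC-KO. *Pfkl*, the liver-type phosphofructokinase, had 39.6 CPM in control and 130 CPM in Maf LSEC-KO, a log2 ratio of 1.72 (1.63 to 1.81). Its paralogs *Pfkp* (33.5 and 37.6 CPM) and *Pfkm* (8.62 and 9.58 CPM) stayed within 1.5-fold, though *Pfkm* was under the level limit and is not among the counted genes. *Pfkl* therefore took 48.5% of the UMIs of the 3 phosphofructokinase genes in control but 73.4% in Maf LSEC-KO, and *Pfkp* went from 41.0% to 21.2%.

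The lower pathway was past 1.5-fold higher at every step. Triose phosphate isomerase (*Tpi1*), which interconverts the 3-carbon sugars, had 64.9 CPM in control and 194 CPM in Maf LSEC-KO, with a log2 ratio of 1.58 (1.51 to 1.65). Enolase 1 (*Eno1*), which makes phosphoenolpyruvate, had 57.5 and 181 CPM, with a log2 ratio of 1.65 (1.58 to 1.73). *Ldha*, which makes lactate from pyruvate, had a log2 ratio of 1.13 (1.09 to 1.17). *Gapdh*, the dehydrogenase often used as a reference gene, had 367 CPM in control and 865 CPM in Maf LSEC-KO, a log2 ratio of 1.24 (1.21 to 1.27). Levels of *Ldha* were 213 and 465 CPM. The other genes past 1.5-fold were *Pgam1* (phosphoglycerate mutase, 77.0 and 165 CPM), *Pgk1* (phosphoglycerate kinase, 100 and 212 CPM), *Pkm* (pyruvate kinase, 269 and 511 CPM), *Gpi1* (glucose phosphate isomerase, 139 and 261 CPM) and *Aldoa* (aldolase A, 168 and 293 CPM), with log2 ratios of 1.10, 1.08, 0.92, 0.90 and 0.81. Several of these genes, among them *Gapdh*, *Eno1*, *Pgk1*, *Ldha*, *Pgam1* and *Tpi1*, have processed pseudogene copies that can share reads, and 3′ tags do not separate the M1 and M2 forms of *Pkm*.

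The neuronal forms were almost absent. *Aldoc* (aldolase C) had 0 UMIs in control LSECs and 13 in Maf LSEC-KO LSECs. With control set to a floor of 3 counts this is 3.54-fold, and the interval of the log2 ratio starts at 1.32. *Eno2* (enolase 2) had 1 and 3 UMIs. *Eno1* held 99.9% or more of the enolase UMIs in both libraries.

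The 3 regulators of flux differed among themselves. *Pfkfb3*, which makes the fructose 2,6-bisphosphate that activates phosphofructokinase and is best known for its role in sprouting vessels, had 24.0 CPM (22.4 to 25.7) in control and 22.7 CPM in Maf LSEC-KO. Its log2 ratio was -0.08 (-0.22 to 0.06), an interval that leaves no room for a 1.5-fold difference at this counting depth. *Pfkfb4*, the other family member listed, had 31 and 44 UMIs, too few to be counted. *Pdk1*, which inhibits pyruvate dehydrogenase and so keeps pyruvate out of the mitochondria, had 34.5 and 54.7 CPM, a log2 ratio of 0.66 (0.56 to 0.77).

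Among the oxygen-sensing genes, the balance of the HIF alpha subunits and of the prolyl hydroxylases shifted. *Epas1*, encoding HIF-2 alpha, the main HIF alpha of endothelium, had 19790 UMIs and 603 CPM in control and 15261 UMIs and 380 CPM in Maf LSEC-KO, a log2 ratio of -0.67 (-0.70 to -0.64). *Hif1a* had 110 and 132 CPM, a log2 ratio of 0.26 (0.20 to 0.32). *Hif1a* thereby took 15.5% of the UMIs of the 2 alpha subunit genes in control but 25.9% in Maf LSEC-KO. *Egln1*, the main oxygen sensor, had 96.0 and 95.6 CPM, a log2 ratio of -0.01 (-0.07 to 0.06). *Egln3*, a prolyl hydroxylase that is itself a HIF target, had 47 UMIs and 1.43 CPM in control and 686 UMIs and 17.1 CPM in Maf LSEC-KO, with a log2 ratio of 3.58 (3.15 to 4.03). It averaged under 10 CPM and is not among the counted genes. Its share of the UMIs of *Egln1* and *Egln3* was 1.47% in control and 15.1% in Maf LSEC-KO.

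The hypoxia-response genes went in opposite directions. *Ankrd37* (chr8:45996902-46005707, minus strand), a small ankyrin-repeat gene known as a HIF1A target, showed the widest ratio of all 32 genes. Control LSECs held 54 of its UMIs (1.64 CPM, 1.24 to 2.15), those of Maf LSEC-KO 1611 (40.1 CPM, 38.1 to 42.1), and the log2 ratio was 4.61 (4.22 to 5.03). In Maf LSEC-KO, 181 of the 3251 LSECs held 50% of its UMIs, a number that depends on how many UMIs a gene has. The genes nearest in UMIs were *Pfkp*, with 1512 UMIs and 312 such cells, and *Hk2*, with 1418 UMIs and 211 such cells. *Bnip3*, a mitophagy receptor, had 17.5 and 26.3 CPM, a log2 ratio of 0.59 (0.44 to 0.74), just past 1.5-fold. *Ndrg1* (chr15:66929318-66969640, minus strand), a stress-responsive gene induced by hypoxia in many cell types, was the lowest of the 32 relative to control. It had 7547 UMIs and 230 CPM in control and 3182 UMIs and 79.2 CPM in Maf LSEC-KO, a log2 ratio of -1.54 (-1.60 to -1.48). *P4ha2*, a subunit of collagen prolyl hydroxylase, had 27.7 and 18.1 CPM, a log2 ratio of -0.62 (-0.76 to -0.48). Its paralog *P4ha1* had 148 and 182 CPM and *Mxi1*, an antagonist of MYC, had 24.3 and 24.9 CPM, both within 1.5-fold.

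In the glycolysis genes the difference was spread over the cells, as their summed share of each cell's UMIs shows. The 22 glycolysis genes took 0.168% (0.167 to 0.170) of the UMIs of control LSECs, with the same genes left out, and 0.355% (0.353 to 0.357) of those of Maf LSEC-KO. The log2 ratio was 1.08 (1.07 to 1.09). Over single cells the median share was 0.159% in control, with 10% of cells under 0.0753% and 10% above 0.258%. In Maf LSEC-KO the median was 0.308%, with 10% of cells under 0.159% and 10% above 0.524%. The lowest 10% of Maf LSEC-KO LSECs thus ended at the median of the control LSECs. The 10 hypoxia genes took 0.126% in control and 0.0996% in Maf LSEC-KO. The largest parts of this sum were *Epas1* (19790 UMIs) and *Ndrg1* (7547) in control. In Maf LSEC-KO they were *Epas1* (15261 UMIs) and *P4ha1* (7330), with *Ndrg1* at 3182.

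**Figure D2:**
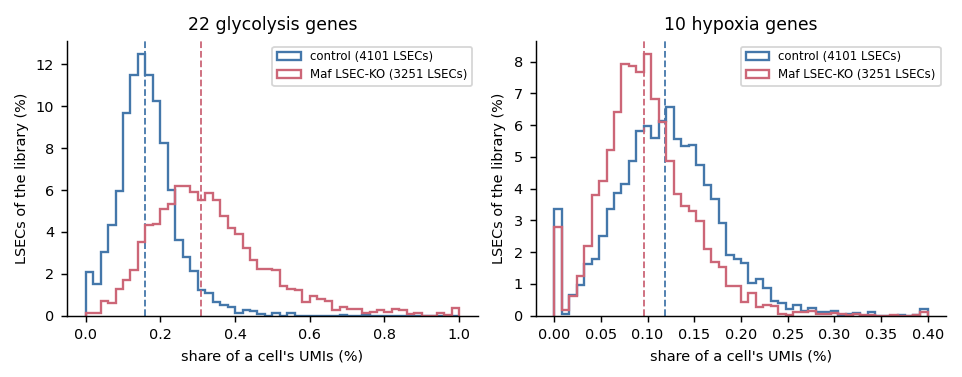
Distribution over LSECs of the percent of a cell's UMIs taken by the 22 glycolysis genes and by the 10 hypoxia genes, control in blue and Maf LSEC-KO in red, with dashed lines at the medians and all higher values drawn in the last bin. The glycolysis distribution is shifted and wider in Maf LSEC-KO (median 0.308% against 0.159%), and the hypoxia distribution lies slightly lower (median 0.0959% against 0.119%).

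Maf LSEC-KO LSECs held more UMIs per cell, and UMIs per cell moved with the share inside that library. Whether this reflects sequencing depth or RNA content per cell was not tested. In bins of 1500 to 5000, 5000 to 10000, 10000 to 20000 and 20000 or more UMIs per cell, chosen after seeing the data, the glycolysis genes took 0.156%, 0.162%, 0.172% and 0.175% in control LSECs. The Maf LSEC-KO LSECs of the same bins gave 0.283%, 0.277%, 0.323% and 0.396%. Within every bin the Maf LSEC-KO value was the higher one. For the hypoxia genes the bins gave 0.110%, 0.119%, 0.130% and 0.136% in control and 0.0999%, 0.107%, 0.103% and 0.0958% in Maf LSEC-KO, so that the distance between the libraries widened with UMIs per cell.

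Genes next to the pathway, from a list that covers side branches and further HIF targets, gave a mixed picture. The counts that follow stand beside the same background, 20.2% of all genes higher and 9.55% lower. Of 7 pentose phosphate genes 6 were counted and 4 were past 1.5-fold higher, none lower. These were *Taldo1* (transaldolase, 147 and 282 CPM), *Tkt* (transketolase, 71.0 and 138 CPM), *Pgls* (89.7 and 160 CPM) and *Pgd* (26.3 and 40.1 CPM), which are named here because they are few. Of 10 genes for pyruvate entry into mitochondria 7 were counted, and 0 passed 1.5-fold in either direction. Of 10 further HIF pathway genes, such as *Arnt* and *Vhl*, 8 were counted and 0 passed. Of 22 paralogs and neighbours of the glycolysis genes, 5 were counted. *Slc2a3* (GLUT3, a high-affinity glucose transporter), which reached the level limit only through Maf LSEC-KO, had 44 UMIs and 1.34 CPM in control and 798 UMIs and 19.9 CPM in Maf LSEC-KO, a log2 ratio of 3.89 (3.45 to 4.36). *Ldhb*, the lactate dehydrogenase subunit favoured in oxidative tissue, had 63.0 and 39.2 CPM, a log2 ratio of -0.69, opposite in sign to *Ldha*.

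Of 23 other hypoxia targets 17 were counted, 8 higher and 2 lower. Past 2-fold were *Edn1* (endothelin 1, a vasoconstrictor, 3.14 and 30.6 CPM), *Anln* (9.81 and 43.6 CPM), *Mif* (a cytokine, 48.2 and 195 CPM), *Adm* (adrenomedullin, a vasodilator, 35.2 and 113 CPM) and *Bhlhe40* (a circadian and stress repressor, 31.6 and 74.2 CPM). *Edn1* and *Anln* were under 10 CPM in control and reached the level limit only through Maf LSEC-KO. *Anln* also acts in cell division, and cell-cycle genes were higher in this library. *Loxl2* (61.5 and 35.8 CPM) and *Insig2* (49.6 and 30.6 CPM) were lower. *Vegfa* had 12.1 and 16.6 CPM, within 1.5-fold.

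Maf LSEC-KO LSECs that still held *Maf* RNA offer a comparison inside 1 library, where pool, digestion and sequencing are shared. Of the 3251 LSECs, 213 had at least 5 *Maf* UMIs, 482 had 1 to 4 and 2556 had 0. The glycolysis genes took 0.233% (0.227 to 0.239), 0.360% and 0.363% of the UMIs in these 3 groups, against 0.168% in control LSECs. With a limit of 2 instead of 5 *Maf* UMIs, the log2 ratio of cells with 0 to cells with *Maf* RNA was 0.29 in place of 0.64. The cells with at least 5 *Maf* UMIs thus lay between control LSECs and the other Maf LSEC-KO LSECs. For the hypoxia genes the shares were 0.122%, 0.101% and 0.0976%, against 0.126% in control.

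Of the 27 genes counted between cells with 0 and with at least 5 *Maf* UMIs, 9 were higher and 2 lower in the former. The background was 13.7% of 9046 genes higher and 10.4% lower. *Egln3* had 16.6 CPM in cells with 0 *Maf* UMIs and 6.63 CPM in cells with at least 5, a log2 ratio of 1.32 (0.59 to 2.17), and reached the level limit only through the former. *Ankrd37* had 40.8 and 17.7 CPM, a log2 ratio of 1.21 (0.75 to 1.70). *Slc2a1* had 21.6 and 10.2 CPM, a log2 ratio of 1.09 (0.49 to 1.76). In each of these 3 genes the cells with *Maf* RNA were still above control LSECs, at 1.43, 1.64 and 2.44 CPM. *Gapdh* (894 and 454 CPM), *Eno1* (186 and 96.4 CPM), *Pfkl* (134 and 69.8 CPM), *Tpi1* (199 and 114 CPM), *Pgam1* (167 and 107 CPM) and *Ldha* (476 and 304 CPM) were also higher. *Ndrg1* had 74.3 CPM without and 158 CPM with *Maf* RNA, a log2 ratio of -1.09 (-1.25 to -0.92), beside 230 CPM in control. *Slc16a1* was lower as well, with 15.3 and 23.9 CPM. *Pfkfb3* (23.1 and 28.7 CPM) and *P4ha2* (18.6 and 18.6 CPM) stayed within 1.5-fold.

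**Figure D3:**
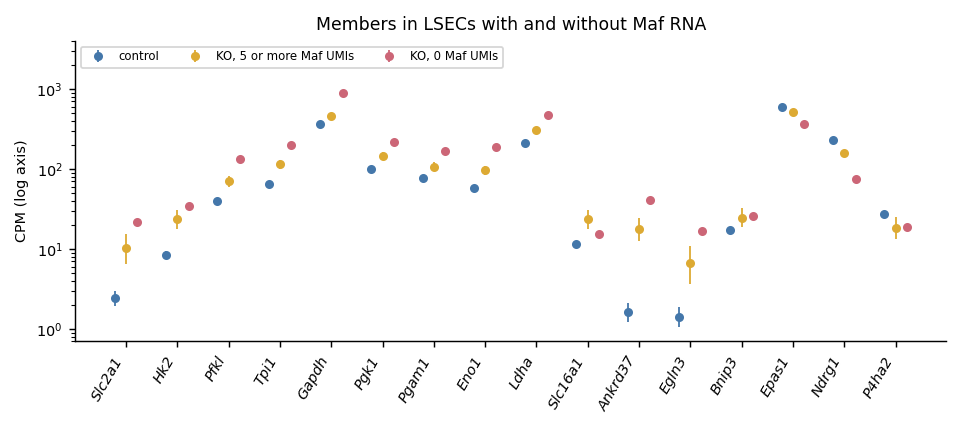
Level in CPM (log axis) of 16 of the genes in control LSECs (blue), Maf LSEC-KO LSECs with 5 or more *Maf* UMIs (yellow) and with 0 *Maf* UMIs (red), with 95% Poisson intervals as bars. Yellow lies between blue and red for *Slc2a1*, *Gapdh*, *Ankrd37*, *Egln3*, *Epas1* and *Ndrg1*, and above both for *Slc16a1*.

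Set against control LSECs, the cells with at least 5 *Maf* UMIs had 5 of 24 counted genes higher (*Slc16a1*, *Hk2*, *Pfkl*, *Tpi1* and *Eno1*) and 0 lower, with 8.16% of all genes higher and 2.75% lower. For *Hk2* the levels were 23.4 and 8.47 CPM. The cells with 0 *Maf* UMIs had 14 of 26 higher and 2 lower against the same control LSECs, with 21.0% and 10.5% of all genes. The cells with at least 5 *Maf* UMIs differed in other ways: stellate markers stood at 696 CPM against 29.8 CPM in cells with 0, macrophage markers at 213 against 65.0 CPM, cell-cycle genes at 340 against 1462 CPM, the immediate-early and heat-shock list at 2007 against 3242 CPM, and ribosomal protein genes at 11.1% against 19.0% of UMIs. Central-zone markers stood at 589 against 131 CPM, and the median was 10164 against 13613.5 UMIs per cell. When cells with 2 or more stellate or 2 or more macrophage markers were left out, a choice made after seeing the data, 175 and 2172 cells remained with 44.6 and 7.30 CPM of stellate markers. Of 28 counted genes 12 were then higher and 2 lower in cells with 0 *Maf* UMIs (15.1% and 10.6% of all genes), and the glycolysis shares were 0.221% in cells with *Maf* RNA and 0.359% in cells with 0. Among the 12, *Slc2a1*, *Egln3* and *Ankrd37* were under 10 CPM in the cells with *Maf* RNA. The part of the remaining differences was not tested.

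Position along the sinusoid was read from a coordinate built on landmark genes that exclude all 32 members. The control coordinate rested on 28 central and 12 portal genes, that of Maf LSEC-KO on 7 central and 24 portal genes. Those 24 include *Esm1* and *Cxcr4*, which are also among the tip-cell genes used further on. The LSECs of each library were split into quartiles from central to portal. In control LSECs glycolysis was highest at the central end: the genes took 0.180%, 0.172%, 0.164% and 0.155% of UMIs from the central to the portal quartile. In Maf LSEC-KO the quartiles gave 0.357%, 0.384%, 0.349% and 0.314%, each above every control quartile. The quartiles also differed in UMIs per cell, with medians of 8438, 9032, 8795 and 6798 in control. In Maf LSEC-KO the medians were 15114, 16500, 14765 and 10115, and the part of this in the shares was not tested. When cells were instead split by the UMIs of *Cdh13*, *Wnt2*, *Rspo3* and *Wnt9b* alone, the log2 ratio of portal to central cells was -0.083 in control and 0.13 in Maf LSEC-KO, the latter opposite in sign to the -0.19 from the quartiles, so no zonal direction of the glycolysis share is read for Maf LSEC-KO.

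Most single genes stayed within 1.5-fold between the end quartiles, 20 of 22 counted in control and 22 of 27 in Maf LSEC-KO. Alternatives to the quartiles were run for the summed shares only, so no gradient of a single gene was checked with another split. In control LSECs, 0 of the 22 counted genes were past 1.5-fold higher in the portal than in the central quartile and 2 were lower, with 3.56% of all genes higher and 4.6% lower. *P4ha2* had 36.2, 31.5, 25.1 and 16.8 CPM from central to portal, a log2 ratio of -1.10 (-1.42 to -0.79). *Ndrg1* had 252, 255, 237 and 166 CPM, a log2 ratio of -0.60 (-0.71 to -0.50). *Epas1* ran the other way, with 498, 582, 631 and 710 CPM, within 1.5-fold.

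In Maf LSEC-KO LSECs, 2 of 27 counted genes were higher in the portal quartile and 3 lower, with 3.34% and 4.08% of all genes. *Epas1* had 288, 326, 412 and 554 CPM, a log2 ratio of 0.94 (0.88 to 1.01). *Egln3* had 11.1, 16.3, 19.9 and 22.9 CPM, a log2 ratio of 1.04 (0.70 to 1.39). *P4ha2* was lower toward the portal end as in control, at 24.8, 18.6, 15.1 and 11.5 CPM, a log2 ratio of -1.11 (-1.47 to -0.75). *Slc16a1* (22.5 CPM central, 9.12 CPM portal) and *Bnip3* (31.2 and 17.6 CPM) were also lower at the portal end. The gene *Ndrg1* had 92.6, 78.1, 74.3 and 68.3 CPM, under every control quartile. These gradients of single genes were read from the quartiles only. *Maf* itself stood at 281 CPM in the central and 47.2 CPM in the portal quartile of this library, and its part in these gradients was not tested.

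**Figure D4:**
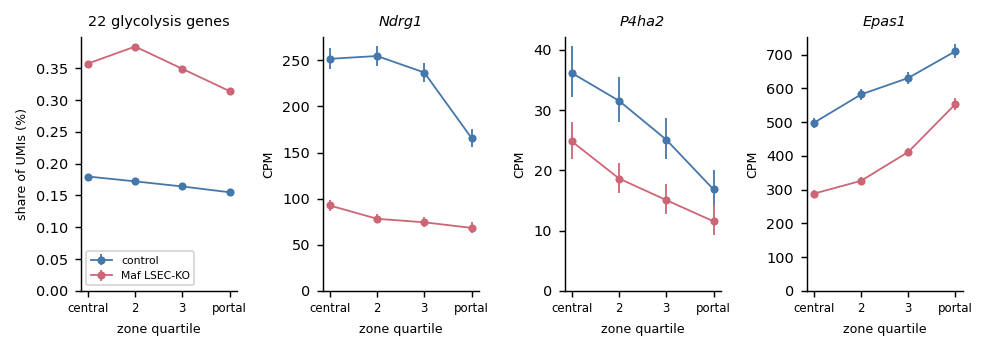
Share of UMIs of the 22 glycolysis genes (percent) and levels of *Ndrg1*, *P4ha2* and *Epas1* (CPM) in 4 quartiles of LSECs from the central to the portal end of the sinusoid, control in blue and Maf LSEC-KO in red, with 95% counting intervals. By these quartiles *P4ha2* declines toward the portal end in both libraries and *Epas1* climbs in both, without a check by another split of the cells. The glycolysis share of every Maf LSEC-KO quartile (0.314% or more) lies above every control quartile (0.180% or less).

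Cycling state went with a higher summed glycolysis share in both libraries, largely through *Gapdh* in control. Cells with UMIs of at least 3 of 13 cell-cycle genes were called cycling (90 in control, 752 in Maf LSEC-KO) and cells with none not cycling (3472 and 1208). The glycolysis genes took 0.204% of UMIs in cycling and 0.165% in non-cycling control LSECs, and 0.393% and 0.316% in Maf LSEC-KO. Without *Gapdh*, an alternative added after seeing the data, the shares were 0.142% and 0.130% in control and 0.288% and 0.244% in Maf LSEC-KO. Of the 15 counted glycolysis genes, 9 had a ratio above and 6 below 1 in control. With all 22 genes, non-cycling Maf LSEC-KO LSECs lay above cycling control LSECs. Cycling cells were deeper, with a median of 14918 against 7808 UMIs in control and 22805.5 against 10060.5 in Maf LSEC-KO.

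In control, 4 of 23 counted genes were higher in cycling LSECs and 1 was lower, with 14.8% and 6.58% of all genes. *Gapdh* had 610 CPM in cycling and 352 CPM in non-cycling cells, *Pgk1* 172 and 97.1 CPM, *Tpi1* 96.8 and 63.5 CPM, and *Mxi1* 50.8 and 22.9 CPM. *Aldoa* was the lower one, at 83.3 and 172 CPM, a log2 ratio of -1.04 (-1.34 to -0.76). In Maf LSEC-KO, 0 of 27 counted genes were past 1.5-fold higher and 1 was lower, with 8.49% and 3.29% of all genes. *Pgk1* (258 and 174 CPM), *Gapdh* (1047 and 717 CPM) and *Tpi1* (234 and 163 CPM) came nearest, with log2 ratios of 0.57, 0.55 and 0.52. *Aldoa* had 247 and 295 CPM. *Ndrg1* was the lower gene, with 59.8 CPM in cycling and 96.7 CPM in non-cycling cells. *Ankrd37* (36.9 and 43.2 CPM) and *Egln3* (18.0 and 17.6 CPM) were close in both states.

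Tip cells lead vessel sprouts, and 6 tip-cell genes (*Esm1*, *Kcne3*, *Apln*, *Angpt2*, *Cxcr4* and *Pgf*) were used to rank the 926 Maf LSEC-KO LSECs with neither *Maf* nor cell-cycle UMIs. Of these cells 539 had no tip-gene UMI, so the ranks of the lower cells are ties. The cells were cut by rank into 3 ranges of nearly equal cell number (308, 309 and 309 cells), which are not cell types. Cells without a tip-gene UMI fill the lower range and reach into the middle one, so these 2 differ little in score. From the lower to the upper range the glycolysis genes took 0.310%, 0.321% and 0.358% of UMIs. Of 27 counted genes 2 were higher in the upper range and 0 lower, with 3.48% and 3.52% of all genes. *Egln3* had 22.9 CPM in the upper and 11.2 CPM in the lower range, a log2 ratio of 1.03 (0.35 to 1.76). *Slc2a1* had 28.6 and 16.1 CPM, a log2 ratio of 0.83 (0.24 to 1.43). *Ankrd37* (49.4 and 50.2 CPM) and *Pfkfb3* (29.3 and 23.3 CPM) stayed within 1.5-fold. The upper range and the portal quartile share *Esm1* and *Cxcr4* in their definitions, so that the values of *Egln3* in both are not independent. The lower range was shallower, with a median of 7691.5 against 10671 UMIs, and carried 181 against 9.53 CPM of stellate markers.

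Other groups of cells in the same libraries were compared as well, a choice made after seeing the data. *Vwf*-positive endothelial cells came from the same endothelial clusters as the LSECs and were set apart only by a *Vwf* UMI. *Vwf* is used as a marker of larger vessels, but whether these cells lined such vessels was not tested. They numbered 161 in control and 1182 in Maf LSEC-KO, and their *Maf* level was 1828 and 29.3 CPM. They made up 161 of 4435 endothelial cells in control and 1182 of 4623 in Maf LSEC-KO, and central-zone markers stood at 3392 and 683 CPM in them. The 2 groups thus differ in size and in makeup, and the part of this in the values that follow was not tested. The glycolysis genes took 0.205% and 0.360% of their UMIs, beside 0.168% and 0.355% in LSECs. Of 26 counted genes 15 were higher and 2 lower, with 14.6% and 8.27% of all genes. *Slc2a1*, *Hk2*, *Ankrd37* and *Egln3* were under 10 CPM in control and reached the level limit only through Maf LSEC-KO. *Ankrd37* had 8.69 CPM in control and 75.7 CPM in Maf LSEC-KO, *Egln3* 6.95 and 32.7 CPM, *Slc2a1* 2.895 and 23.8 CPM, and *Ndrg1* 187 and 96.0 CPM.

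Macrophage-like cells held 1522 CPM of *Maf* in 219 control and 1508 CPM in 390 Maf LSEC-KO cells. The glycolysis share of these droplets was nearly level, 0.272% (0.264 to 0.281) and 0.283% (0.276 to 0.290). Of 26 counted genes 2 were higher and 4 lower, with 10.7% and 13.1% of all genes. *Gapdh* had 728 and 660 CPM, *Ldha* 239 and 283 CPM, *Tpi1* 156 and 184 CPM, and *Hk2* 153 and 163 CPM. *Slc2a1* (11.2 and 24.2 CPM) and *P4ha1* (130 and 221 CPM) were higher. *Ndrg1* (71.9 and 11.3 CPM), *Epas1* (170 and 79.6 CPM), *Pfkfb3* (48.8 and 32.03 CPM) and *Slc16a3* (17.2 and 10.4 CPM) were lower. *Ankrd37* had 5 UMIs, 3.298 CPM, in control and 33 UMIs, 14.3 CPM, in Maf LSEC-KO, below the level limit. The macrophage-like cells also carried *Clec4g* RNA of LSECs, 934 CPM in control and 205 CPM in Maf LSEC-KO, beside 3017 and 1508 CPM in the LSECs themselves. LSEC RNA in these droplets therefore differed between the libraries. The LSECs themselves held 3471 CPM of *Maf* in control and 125 CPM in Maf LSEC-KO. The part of LSEC RNA in the *Maf* level, in the glycolysis share and in the levels of *Ndrg1*, *Epas1* and the other genes there was not tested. The immediate-early and heat-shock list stood at 1666 CPM in control and 1367 CPM in Maf LSEC-KO macrophage-like cells, the reverse of its order in LSECs.

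**Figure D5:**
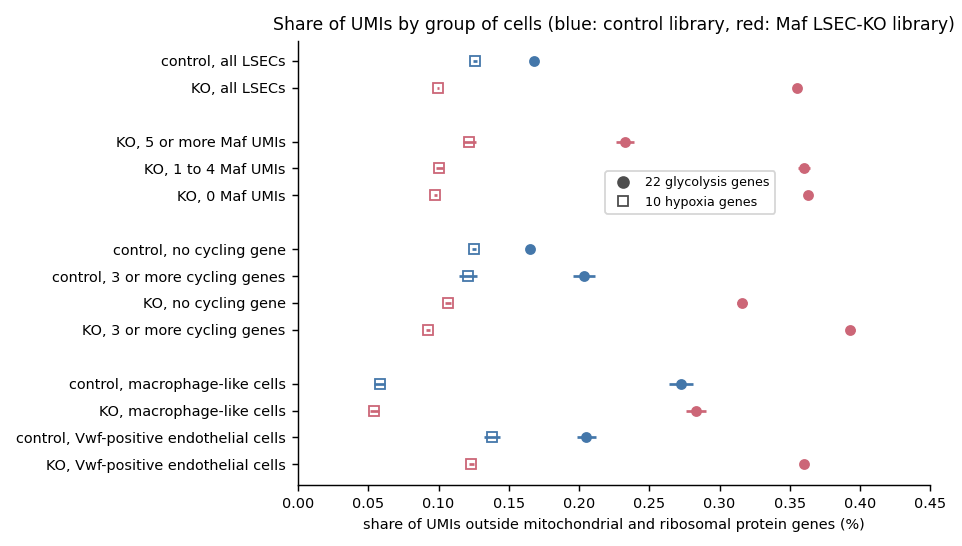
Percent of UMIs taken by the 22 glycolysis genes and the 10 hypoxia genes in groups of cells of both libraries, with 95% binomial intervals that cover counting error only. The glycolysis share is higher in Maf LSEC-KO for LSECs and for *Vwf*-positive cells of the same endothelial clusters (0.360% against 0.205%). It is nearly level in macrophage-like cells (0.283% against 0.272%).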

How the data were processed

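The authors deposited 1 filtered table of UMI counts per library, made with Cell Ranger 6.0.2 on mm10 and analysed with Seurat 5.0.1 (submitters' processing notes). The deposited tables held 5664 control and 7091 Maf LSEC-KO barcodes with 47681895 and 89872764 UMIs. Cells under 1500 UMIs or 750 genes were left out, which kept 4961 and 5423. Scrublet (scanpy 1.11.5) scored doublets, and since its automatic limit marked 0 cells, the highest 225 and 308 scores were removed. Cells were clustered in Seurat 5.3.0 (resolution 0.3), and endothelial clusters without *Vwf*-positive cells (161 and 1182) were taken as LSECs. In control these include clusters of 591 and 408 cells led by *Hba-a1* and *Hba-a2*, with medians of 3315 and 3080 UMIs. Control clusters of 512 (*Rspo3*, *Bmp4*) and 247 cells (*Igfbp5*, *Nrg1*) are also among them. In Maf LSEC-KO they include a cluster of 1257 cells led by *Hbb-bt* and *Hbb-bs*, with a median of 15983 UMIs. Smaller Maf LSEC-KO clusters held 375 (*Gja5*, *Npr3*), 191 (*Rspo3*, *Bmp4*), 110 (*Dcn*, *Ccl21a*) and 74 cells (*Ppbp*, *Nrgn*). All sizes are before the last filters. No alternative left out these clusters as such. UMIs were summed per library or group and divided by all UMIs except those of mitochondrial and ribosomal protein genes (32835887 and 40198616 in LSECs). Thinning to 2700 UMIs left out 406 and 187 shallower LSECs. Calculations used Python 3.11.15, numpy 2.4.6, scipy 1.17.1 and R 4.3.3, and were tested on simulated data. All 32 genes are named, and of the genes beside the pathway those past 2-fold, with exceptions stated in the text. Members, lists and comparisons were chosen with earlier results of these data known. Gene positions follow GENCODE M21 (GRCm38) and promoters RefSeq.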

Additional observations from a re-analysis of the deposited data

How the results depend on the processing

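With 1 library per genotype no library could be left out. No paired analysis was possible because each genotype has only 1 library. Counts of genes past 1.5-fold stayed within 1.5 times of 15 higher and 3 lower under every alternative run, except that 1 gene was lower at a fold of 2. The share over all genes moved across these runs as well. It ran from 9.06% (fold of 2) to 36.1% (no filter on low values) higher and, in the same runs, from 4.17% to 17.2% lower. Of the called genes, *Bnip3* stayed past 1.5-fold in 3 of 12 alternatives, *Epas1* in 8, *Pdk1* in 10 and *P4ha2* in 11, and the other called genes in all 12. The log2 ratio between libraries of the glycolysis share (1.08) and the hypoxia share (-0.34) moved beyond counting error as follows: with all UMIs 0.89 and -0.53, median-of-ratios scaling 0.90 and -0.52, means over cells 0.9998 and -0.26, thinned cells 0.96 and -0.27, cells without cell-cycle UMIs 0.93 and -0.23, Maf LSEC-KO cells with 0 *Maf* UMIs 1.11 and -0.37, cells of 5000 to 20000 UMIs 0.90 and -0.28. The glycolysis value was 1.06 in cells with few stellate and macrophage markers and 1.03 without *Gapdh*, and the hypoxia value -0.25 with *Vwf*-positive cells kept. In the depth bins the glycolysis values were 0.86, 0.77, 0.91 and 1.17, and the hypoxia values that moved were -0.14, -0.16 and -0.50 (first, second and last bin). Between Maf LSEC-KO cells with 0 and at least 5 *Maf* UMIs (0.64 and -0.32), a limit of 2 *Maf* UMIs gave 0.29 and -0.18, cells without cell-cycle UMIs 0.71 and cells with few stellate and macrophage markers 0.70 for glycolysis. From central to portal, cells split by *Cdh13*, *Wnt2*, *Rspo3* and *Wnt9b* alone gave -0.083 for glycolysis and -0.011 for hypoxia genes in control (main values -0.21 and 0.11), the latter reversed in sign, and 0.13, also reversed, and 0.10 in Maf LSEC-KO (main values -0.19 and 0.29). Control cells of at least 5000 UMIs gave -0.16 for glycolysis, and control landmark genes applied to Maf LSEC-KO gave -0.45 and 0.34. Without *Gapdh*, the glycolysis value of cycling against non-cycling cells was 0.13 in control (main value 0.30) and 0.24 in Maf LSEC-KO (main value 0.32). The causes of these shifts were not tested, apart from the cells or UMIs that each alternative leaves out. Depth limits *Aldoc*, *Eno2*, *Pfkfb4* and *Pfkm*.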

Other observations

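Other captured cells carried other forms of the same enzymes. In monocyte- and neutrophil-like cells (40 in control, 86 in Maf LSEC-KO), *Slc16a3* stood at 405 and 339 CPM and *Pfkfb4* at 150 and 160 CPM, far above their LSEC levels of 2.44 and 9.30 CPM and of 0.944 and 1.09 CPM. *Slc2a3* stood there at 212 and 418 CPM. *Hk3*, a hexokinase of myeloid cells, had 79.8 and 102 CPM in macrophage-like cells and 0.457 and 0.821 CPM in LSECs. *Aldoc* had 21 UMIs, 40.1 CPM, in the 37 cholangiocyte-like cells of Maf LSEC-KO, more UMIs than in all 3251 LSECs of that library.

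B-like cells (47 and 39) had 198 CPM of *Ndrg1* in control and 37.9 CPM in Maf LSEC-KO, beside 2055 and 351 CPM of the LSEC gene *Clec4g*. *Ankrd37* had 19.0 CPM (8 UMIs) and 61.6 CPM (13 UMIs) in these cells. These levels are given as values, and the part of LSEC RNA in them was not tested.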
